A study of Homo sapiens with 24 samples.

Results

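The genes described are 10 targets of p53 that act in apoptosis: BBC3, PMAIP1, BAX, FAS, TNFRSF10B, AEN, TP53I3, TP53INP1, ZMAT3 and PHLDA3. They were taken by symbol, and each symbol matched 1 of the 54377 genes of the deposited table of gene-body counts. All 10 passed the filter on low counts, which kept 21246 genes. Between them they received 139 to 4069 counts in a library.

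p53 is a transcription factor that DNA damage stabilizes. It binds response elements near its target genes and raises their transcription, and strong or lasting induction can end in programmed cell death. The products of these genes act at different points of that pathway. BBC3 (PUMA) and PMAIP1 (NOXA) are BH3-only proteins that bind antiapoptotic BCL-2 proteins, and BAX forms pores in the outer mitochondrial membrane. FAS and TNFRSF10B (DR5) are death receptors of the cell surface. AEN is a nuclease, TP53I3 an oxidoreductase, TP53INP1 a nuclear cofactor of p53, ZMAT3 an RNA-binding protein and PHLDA3 an inhibitor of AKT signalling.

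The values come from mNET-seq, which sequences the nascent RNA held by immunoprecipitated RNA Pol II, in wild-type U2OS cells, a human osteosarcoma line that keeps wild-type p53. Antibodies recognized the Pol II CTD phosphorylated on tyrosine 1 (Y1P), serine 2 (S2P) or serine 5 (S5P), and cells received no irradiation or a dose of 10 Gy, which makes 6 groups of 2 libraries. The sample labels give a time of 10 min for the irradiation, whereas the study's methods give a longer interval before collection, so the time is not settled. Counts cover a gene from 200 bp after its start to its end, on its own strand. The 12 libraries held 16220773 to 33144659 counts. Each joins the columns of 2 batches, and the labels do not say what a batch is. The nonirradiated Y1P library of replicate 2 stood apart, with a TMM factor of 0.835 against 0.942 to 1.09 in the other 11 libraries, and the replicates of its group differed the most (chi-square per degree of freedom 61.3 and 70.2 in the batches, against 10 to 31.6 in the other groups). Values are given as CPM after TMM scaling, the counts of a gene relative to the rest of its library. Whether more cells transcribed a gene or each cell held more Pol II on it cannot be told apart. Of 12 markers of the mesenchymal and osteoblast lineage 8 reached 1 CPM, with RUNX2 at 462 to 695 CPM and BGLAP at 0 counts, and the 12 summed to 940 to 1222 CPM without and 903 to 1128 CPM with irradiation. COL1A2 and TWIST1 of that list stayed below 1 CPM. Of 11 markers of other lineages 5 reached 1 CPM, among them EPCAM at 4.09 to 8.44 CPM and CDH1 at 3.92 to 8.23 CPM. These 11 summed to 14.7 to 21.8 CPM without and 17.4 to 25.1 CPM with irradiation.

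Per kilobase of gene body, the genes spanned a wide range before irradiation. BAX had the highest level in the 6 nonirradiated libraries, with a mean of 4.8 CPM per kb and a range of 3.38 to 6.78. AEN, TP53I3, PMAIP1, PHLDA3, TNFRSF10B and BBC3 followed in that order, with means from 3.25 down to 1.93 CPM per kb. Each of these 7 genes overlapped in range with the next of them. ZMAT3 stood below BBC3 with no overlap, at a mean of 0.573 CPM per kb, and overlapped with TP53INP1 at 0.512. FAS was the lowest, at a mean of 0.11 CPM per kb and a range of 0.102 to 0.123, below every value of TP53INP1. Its body of 75.59 kb begins 36985 bases before its RefSeq start. It also overlaps STAMBPL1 on the same strand, where shared reads were left out, so the level of FAS may be understated. The median of the 14661 protein-coding genes tested was 0.557 CPM per kb, so that 7 of the 10 genes lay well above it, ZMAT3 and TP53INP1 near it and FAS below it. With Y1P, BBC3 was the seventh in order before irradiation, at 2.05 CPM per kb, and the fourth after it, at 4.12. Its range overlapped with those of PHLDA3, TNFRSF10B and PMAIP1 before irradiation and with those of TP53I3 and PHLDA3 after it. Its place among these genes is thus not settled.

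**Figure D1:**
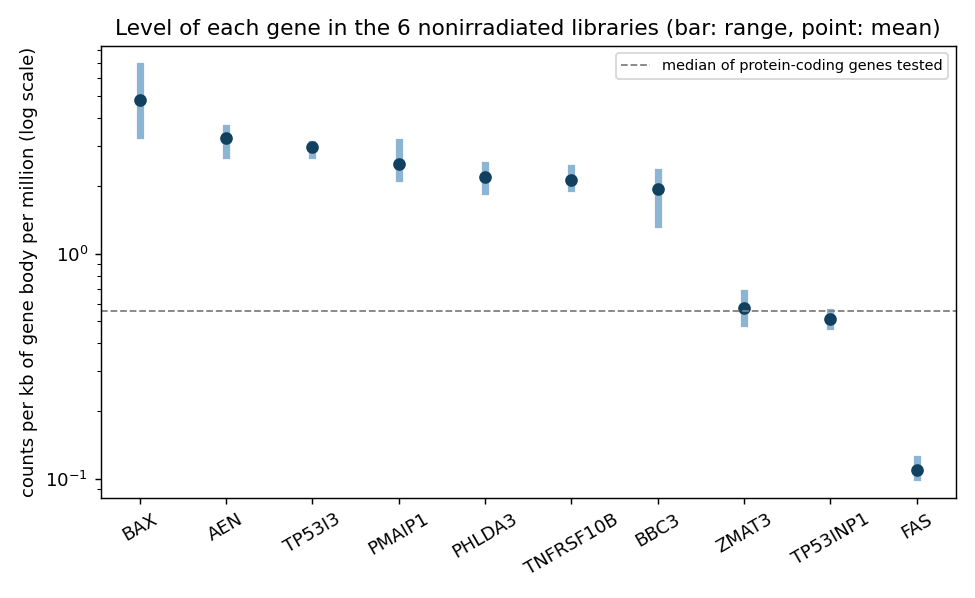
Level of each gene in the 6 nonirradiated libraries, in CPM per kb of gene body on a log axis. Bars give the range over the libraries, points the mean, and the dashed line the median of protein-coding genes. BAX lies highest at a mean of 4.8 and FAS lowest at 0.11.

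DNA around the starts of these genes was searched for p53 response elements, since p53 binds such elements near its target genes. The full element is made of 2 copies of a 10-base motif with C and G at the ends of its 4-base core, and its consensus reads the same on both strands. Within 2500 bases of the GENCODE start, 5 of the 10 genes held a 20-base match with the C and G of both cores intact and at most 2 mismatches elsewhere, against 3.72% of the 14661 protein-coding genes tested. At most 1 mismatch was met by 1 of the 10 genes against 0.457%, and a perfect match by the same gene, ZMAT3, against 0.0614%. The limits of this search were chosen after a search of shorter promoters. The matches of PMAIP1, BAX, AEN and ZMAT3 are shown, read on the strand of the gene in hg38, with the 4-base cores in capitals. That of PMAIP1, at chr18:59899549-59899568 on the plus strand, begins at position -447 relative to the start and has 2 mismatches. That of BAX, at chr19:48955213-48955232 on the plus strand, begins at position 398 and has 2 mismatches. That of AEN, at chr15:88621306-88621325 on the plus strand, begins at position -31 and has 2 mismatches. That of ZMAT3, at chr3:179070188-179070207 on the minus strand, begins at position 2008.
PMAIP1: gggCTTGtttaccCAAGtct
BAX: gggCAGGcccgggCTTGtcg
AEN: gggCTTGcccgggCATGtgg
ZMAT3: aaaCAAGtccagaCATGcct

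TNFRSF10B held the fifth match, at position 390 and with 2 mismatches. A missing match says only that these letters were not in the window. BBC3, FAS, TP53I3, TP53INP1 and PHLDA3 had none, where the window of FAS did not reach its RefSeq start, 36985 bases after that in GENCODE. The search left out elements with bases between the 2 copies or with more mismatches, so these genes may hold elements that it missed. How matches relate to the irradiation effect was not tested.

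The RefSeq promoters of build GRCh38.p14, which run from 250 bases before to 50 bases after a start, covered 7 of the 10 genes. TNFRSF10B, TP53INP1 and PHLDA3 were not among them. Of the 7, only AEN held a perfect 10-base p53 motif, against 6.63% of 35116 promoters, and none held the TATA box core TATAAA on the gene's strand before the start, against 6.80%. The promoter of AEN is shown because the motif lies inside it, in capitals, at chr15:88621090-88621389 on the plus strand. Its content of G and C was 66.0%, against a median of 58.7% over all promoters, and that of the other 6 promoters ranged from 48.0% (BBC3) to 71.7% (ZMAT3).
AEN promoter: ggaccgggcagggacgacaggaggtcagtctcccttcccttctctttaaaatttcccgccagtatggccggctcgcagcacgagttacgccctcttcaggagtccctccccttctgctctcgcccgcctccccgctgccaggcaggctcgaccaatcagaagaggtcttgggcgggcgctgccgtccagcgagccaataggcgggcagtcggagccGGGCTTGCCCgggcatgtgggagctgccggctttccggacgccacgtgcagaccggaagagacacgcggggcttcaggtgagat

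With Y1P, irradiation was followed by a higher gene-body signal of BBC3, PHLDA3, AEN, PMAIP1 and TP53I3. These are 5 of the 10 genes, against 4.38% of all genes tested. A gene passed where edgeR's quasi-likelihood test gave an adjusted p below 0.05 and the log2FC was above 0.1. With S2P and with S5P only BBC3 passed, which is 1 of 10 genes each, against 0.0141% and 0.00941% of all genes. The mean of the 3 antibodies, fitted as 1 contrast, passed for 7 genes, the 5 of Y1P with TP53INP1 and BAX, against 11.9% of all genes. FAS, TNFRSF10B and ZMAT3 did not pass with any antibody or in the mean. With 1 replicate block shared by the antibodies, FAS passed as higher (adjusted p = 0.0485) and ZMAT3 as lower (adjusted p = 0.0376) in the mean, and TP53INP1 passed with Y1P, AEN with S2P and PHLDA3 with S5P. With S2P, DESeq2 called AEN (adjusted p = 0.0261), and its filter left BBC3 with no adjusted p (unadjusted p = 5.53e-08). The antibodies may share cultures, so they are not independent repeats. The study writes of biological and of technical replicates without saying how they map onto the replicate numbers of the table, so the p-values reflect the spread between libraries, part of which may be technical. Over the 10 genes the median log2FC was 0.47 with Y1P, 0.33 with S2P and 0.27 with S5P, beside 0.0188, 0.0213 and -0.00213 over all genes tested.

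**Figure D2:**
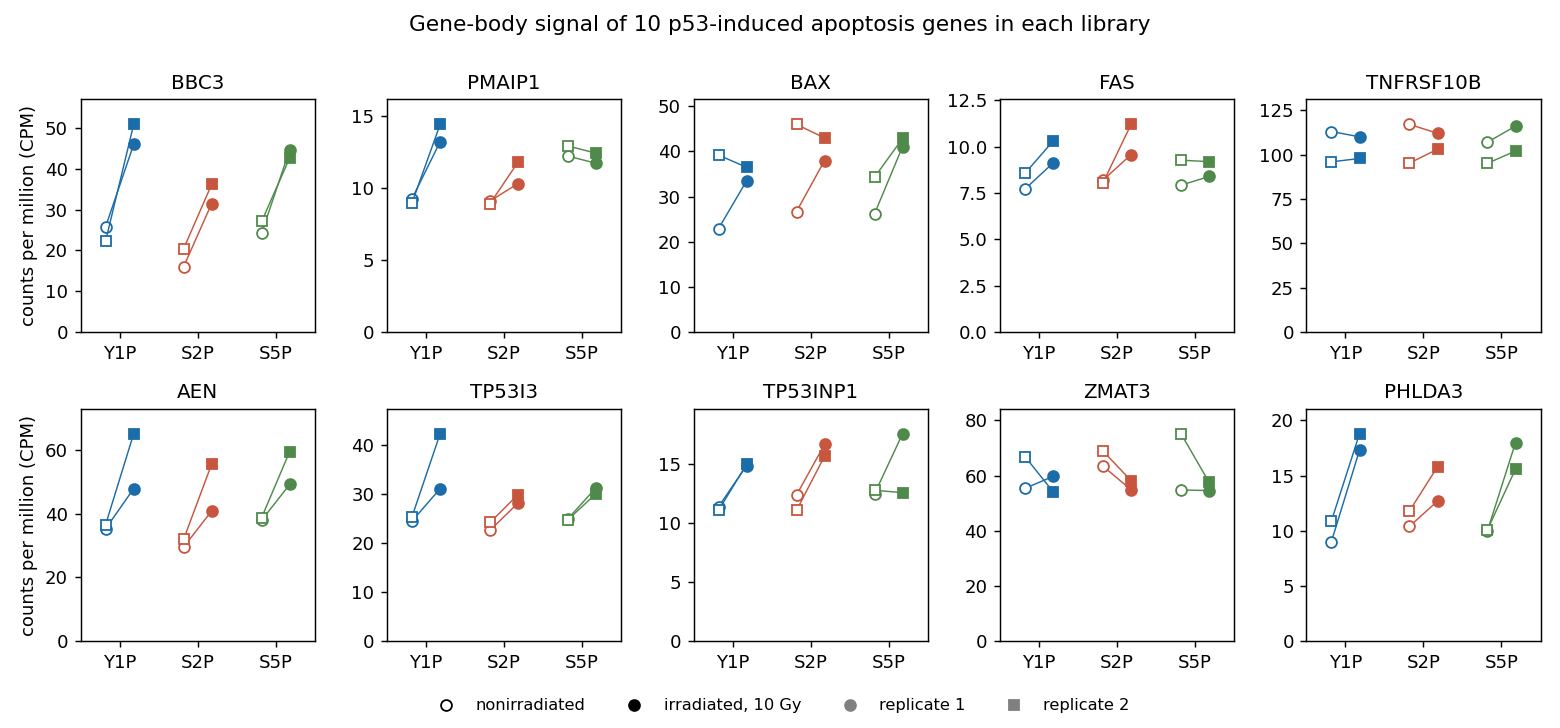
Gene-body signal of each gene in each of the 12 libraries, in CPM on axes that start at 0, with lines that join the libraries of 1 replicate number. Open symbols are nonirradiated and filled symbols irradiated. BBC3, AEN, TP53I3 and PHLDA3 have both filled symbols above both open ones with all 3 antibodies.

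Among the BH3-only and BCL-2 proteins, BBC3 moved furthest. Its signal with Y1P was 25.8 and 22.3 CPM in the nonirradiated libraries and 46.0 and 50.9 CPM in the irradiated ones. With S2P it was 16 and 20.4 CPM against 31.5 and 36.2 CPM, and with S5P 24.2 and 27.1 CPM against 44.7 and 42.7 CPM. Every irradiated library lay above every nonirradiated one of the same antibody. Averaged over the antibodies BBC3 was 1.86-fold higher (log2FC 0.89, SE 0.0684, adjusted p = 7.25e-06), and the rise was seen in 6 of 6 pairs. With 1 replicate of an antibody left out, its remaining pair has no spread of its own and is taken to vary like the other antibodies. So tested, BBC3 still passed with Y1P without replicate 1 (log2FC 1.17, adjusted p = 0.00256), but without either S2P replicate it did not pass with S2P (log2FC 0.81 and 0.98), without either S5P replicate it did not pass with S5P (0.65 and 0.86), and without Y1P replicate 2 it did not pass with Y1P (0.87). In batch 1 alone it did not pass with S5P either (log2FC 0.72, adjusted p = 0.0688).

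PMAIP1 passed with Y1P alone among the antibodies. DESeq2 did not call it there, since its filter left PMAIP1 with no adjusted p (log2FC 0.56, unadjusted p = 0.00816). Its signal with Y1P was 9.25 and 8.96 CPM before and 13.2 and 14.4 CPM after irradiation, a log2FC of 0.60 (SE 0.138, adjusted p = 0.0268). With S2P it was 9.09 and 8.91 CPM against 10.3 and 11.8 CPM (log2FC 0.29, SE 0.139, adjusted p = 0.294). With S5P it was 12.2 and 12.9 CPM against 11.7 and 12.4 CPM (log2FC -0.06, SE 0.136, adjusted p = 0.877). The groups were thus apart with Y1P and S2P and overlapped with S5P. The nonirradiated signal was highest with S5P, but this did not pass edgeR's test between antibodies. The log2FC was 0.46 against Y1P (adjusted p = 0.54) and 0.48 against S2P (adjusted p = 0.0834). Its part in the S5P effect was not tested. In the mean of the antibodies PMAIP1 passed at a log2FC of 0.27 (adjusted p = 0.0238). That call was lost when any 1 replicate of an antibody was left out, apart from Y1P replicate 1, and the log2FC then lay between 0.24 and 0.31. In batch 1 alone the mean was 0.24 (adjusted p = 0.104), and in batch 2 alone the Y1P value was 0.48 (adjusted p = 0.0905). Shorter genes rose more, as described further on, and once this length trend was taken off the log2FC of PMAIP1 was 0.23 with Y1P (adjusted p = 0.327) and 0.013 in the mean (adjusted p = 0.933).

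BAX, the effector of mitochondrial pore formation, was uneven between replicates. Its Y1P signal was 22.9 and 39.2 CPM before and 33.5 and 36.5 CPM after irradiation, and its S2P signal 26.7 and 46.0 CPM against 38.0 and 43.0 CPM. In both antibodies replicate 1 was higher and replicate 2 lower after irradiation, and the groups overlapped. With S5P the values were 26.2 and 34.3 CPM against 41.1 and 42.9 CPM, with no overlap. BAX passed only in the mean of the antibodies (log2FC 0.30, SE 0.0927, adjusted p = 0.0306), and with S5P alone its log2FC was 0.48 (SE 0.161, adjusted p = 0.325). The call in the mean was lost without Y1P replicate 1 (log2FC 0.18) and without S2P replicate 1 (log2FC 0.20), in batch 2 alone (0.29, adjusted p = 0.0561) and with the length trend removed (0.085, adjusted p = 0.605).

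The death receptor genes did not pass. TNFRSF10B, the receptor of TRAIL, had 113 and 95.9 CPM with Y1P before and 110 and 97.8 CPM after irradiation, and the groups overlapped with each antibody. Its log2FC was -0.01 with Y1P, 0.03 with S2P and 0.11 with S5P, and the 95% interval of the mean ran from -0.06 to 0.15. This gene had the narrowest interval of the 10. FAS, the receptor of the FAS ligand, had 7.71 and 8.56 CPM with Y1P before and 9.12 and 10.3 CPM after irradiation, and 8.19 and 8.05 against 9.57 and 11.2 CPM with S2P. The groups were apart with these antibodies, at log2FCs of 0.26 and 0.35, and overlapped with S5P at 0.03. In the mean FAS had a log2FC of 0.21 (SE 0.0846, adjusted p = 0.0799). The value was 0.40 in batch 1 alone, where it passed (adjusted p = 0.02), and 0.073 in batch 2 alone (adjusted p = 0.629). Batches of 1 replicate number differed by little more than sampling noise over all genes and are not separate samples. FAS passed as higher in the mean in 6 of 19 alternatives, which were batch 1 alone, upper quartile factors, library totals, the stricter filter, the shared replicate block and batches as replicates.

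AEN, a nuclease that p53 induces and that cuts DNA in apoptotic cells, rose in every pair. Its signal was 35.2 and 36.5 CPM before and 47.8 and 65.0 CPM after irradiation with Y1P, 29.5 and 31.9 against 40.8 and 55.5 CPM with S2P, and 37.9 and 38.7 against 49.1 and 59.4 CPM with S5P. The groups were apart with each antibody, and replicate 2 was higher than replicate 1 in each irradiated group. For Y1P the log2FC was 0.64 (adjusted p = 0.0198), and 0.42 with the length trend removed (adjusted p = 0.0605). It was 0.63 for S2P and 0.50 for S5P, where the adjusted p of 0.0915 and 0.219 missed the threshold. The mean of the antibodies was 1.5-fold higher (log2FC 0.59, SE 0.0699, adjusted p = 0.000513).

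TP53I3, a quinone oxidoreductase tied to reactive oxygen species, had 24.5 and 25.4 CPM before and 31.1 and 42.3 CPM after irradiation with Y1P. With S2P it had 22.6 and 24.2 against 28.2 and 29.9 CPM, and with S5P 25.0 and 24.8 against 31.3 and 30.1 CPM. No groups overlapped, and the mean log2FC was 0.39 (SE 0.067, adjusted p = 0.00295). With the length trend removed it did not pass in the mean (log2FC 0.19, adjusted p = 0.0595) or with Y1P (0.28, adjusted p = 0.139). The whole of TP53I3 lies inside FAM228B on the other strand, which also rose with Y1P (log2FC 0.52, SE 0.125, adjusted p = 0.0295). Reads were counted by strand, and the part of FAM228B in the value of TP53I3 was not tested.

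TP53INP1, a stress-induced cofactor of p53, had 11.4 and 11.1 CPM with Y1P before and 14.9 and 15 CPM after irradiation, and 12.4 and 11.1 against 16.7 and 15.7 CPM with S2P. With S5P only 1 of 2 pairs was higher, at 12.5 and 12.8 against 17.6 and 12.6 CPM. The groups overlapped with S5P alone. It did not pass with a single antibody, with a log2FC of 0.40 with Y1P (adjusted p = 0.0849), and passed in the mean (log2FC 0.37, SE 0.0822, adjusted p = 0.00803), though not without S5P replicate 1 (log2FC 0.28). NDUFAF6, which contains it on the other strand, had a mean log2FC of 0.04 (adjusted p = 0.634).

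PHLDA3, whose product competes with AKT for membrane lipids, followed BBC3 in size. Its signal with Y1P was 9.03 and 10.9 CPM before and 17.3 and 18.8 CPM after irradiation, a log2FC of 0.86 (SE 0.133, adjusted p = 0.00922), which was 0.52 with the length trend removed (adjusted p = 0.0534). With S2P it was 10.4 and 11.8 against 12.7 and 15.8 CPM, and with S5P 10.0 and 10.1 against 18 and 15.6 CPM. All 3 antibodies had both irradiated libraries on top, and the mean log2FC was 0.65 (SE 0.0768, adjusted p = 0.000513). The log2FC with S2P, 0.35, was the smallest of the 3 (adjusted p = 0.213).

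ZMAT3, which regulates splicing and the stability of RNA, was the only gene of the 10 with a mean log2FC below 0. Its signal with Y1P was 55.4 and 66.9 CPM before and 59.7 and 54.2 CPM after irradiation, with S2P 63.4 and 68.9 against 54.9 and 58.2 CPM, and with S5P 54.8 and 75.2 against 54.6 and 57.6 CPM. Irradiated libraries were lower in 5 of 6 pairs, and the groups were apart only with S2P. The mean log2FC was -0.17 (SE 0.0667, adjusted p = 0.07). Without Y1P replicate 1 (log2FC -0.26) and without S5P replicate 1 (log2FC -0.24) it passed as lower.

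**Figure D3:**
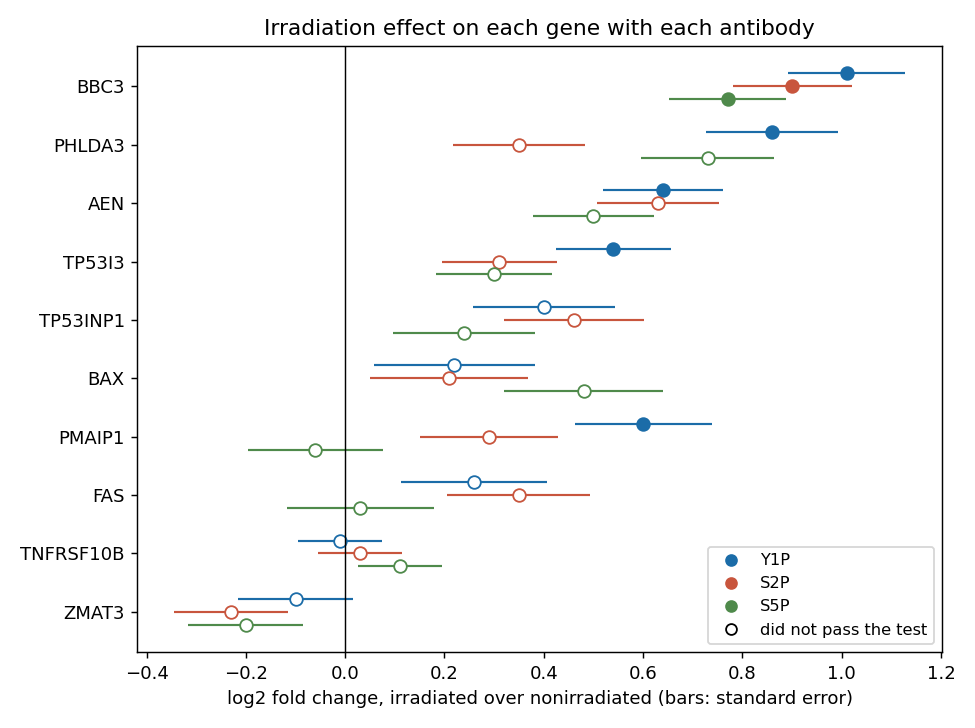
Log2FC of irradiated over nonirradiated libraries for each gene with each antibody, with bars for the SE. Filled points passed the test at an adjusted p under 0.05 and open points did not. BBC3 is filled with all 3 antibodies, at 1.01, 0.90 and 0.77, and the other filled points are those of PHLDA3, AEN, PMAIP1 and TP53I3 with Y1P.

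Both irradiated libraries lay above both nonirradiated ones for 7 of the 10 genes with Y1P, against 26.4% of all genes, for 7 with S2P, against 22.8%, and for 5 with S5P, against 21.6%. BBC3, AEN, TP53I3 and PHLDA3 met this with all 3 antibodies, which are 4 of the 10 genes against 6.51% of all genes. Each of the 4 was higher in 6 of 6 pairs. The number called with Y1P was the same without S2P or S5P replicates and fell to 0 without Y1P replicate 2, where the genes called higher among all those tested fell from 931 to 2. That replicate holds the nonirradiated library that stood apart, whose part in the calls was not tested. Without it the Y1P log2FCs were 0.87 for BBC3, 0.98 for PHLDA3, 0.48 for AEN, 0.56 for PMAIP1 and 0.38 for TP53I3. The mean of the antibodies kept at least 5 of the 7 calls when any library pair was left out, and BBC3, AEN and PHLDA3 passed in all 19 alternatives that gave a mean. Without the replicate number as a block, 0 of the 10 genes passed with a single antibody, where 0% of all genes were called higher with each, and 6 in the mean, against 4.97%. In batch 1 alone 5 genes passed with Y1P (2.43% of all genes were higher), 1 with S2P (0.0218%), 0 with S5P (0.00545%) and 7 in the mean (8.73%). In batch 2 alone 4 passed with Y1P (2.66%), 1 with S2P (0.0265%), 1 with S5P (0.0212%) and 6 in the mean (10.2%).

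The irradiation effect was set against gene-body length, since shorter genes rose more than longer ones among all protein-coding genes. The median log2FC in the mean of the antibodies was 0.24 for the 2319 genes under 10 kb, 0.08 for the 3827 of 10 to 30 kb, -0.07 for the 5007 of 30 to 100 kb and -0.13 for the 3508 over 100 kb. PMAIP1, BAX, PHLDA3 and TP53I3 belong to the first class, with body lengths from 4.11 to 8.23 kb. All 4 were called in the mean, beside 28.4% of their class, and their median log2FC was 0.34. AEN, BBC3 and TP53INP1 belong to the second, all 3 were called beside 16.9% of the class, and their median was 0.59. FAS and TNFRSF10B had a median of 0.13 in the third class, where 5.63% were called higher. ZMAT3, the longest at 111.9 kb, had -0.17 in the class whose median was -0.13. The 3 genes that did not pass in the mean were thus the 3 longest of the 10. With the trend with length removed, only BBC3 still passed with Y1P, where the share of all genes called higher fell from 4.38% to 1.04%. In the mean BBC3, AEN, PHLDA3 and TP53INP1 passed, and the share of all genes fell from 11.9% to 4.8%.

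**Figure D4:**
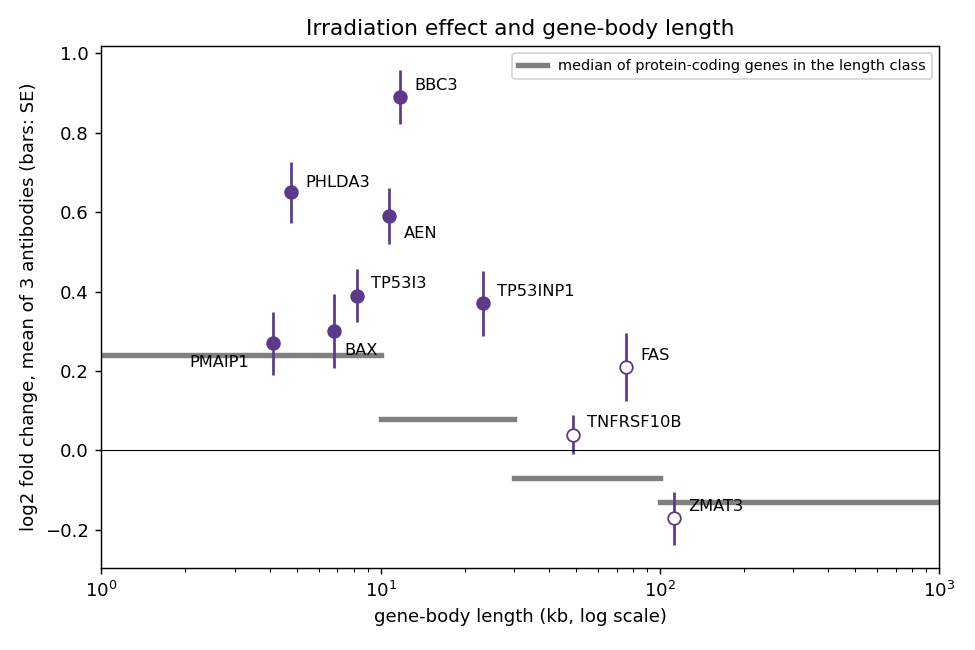
Log2FC in the mean of the 3 antibodies against gene-body length on a log axis, with bars for the SE and filled points for genes that passed the test. Grey lines give the median of protein-coding genes in 4 length classes, which falls from 0.24 to -0.13. BBC3, PHLDA3 and AEN lie furthest above the line of their class, and PMAIP1, BAX and ZMAT3 within 0.1 of it.

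Whether the irradiation effect differed between antibodies was tested as an interaction. No gene of the 10 passed in the comparison of S2P with Y1P, where 0% of all genes did, of S5P with Y1P, where also 0% did, or of S5P with S2P, where 0.00471% did. DESeq2 also called 0 of the 10 in each. At an unadjusted p under 0.05 there were 1, 1 and 0 genes. The first was PHLDA3, whose effect was smaller by S2P than by Y1P at a log2 difference of -0.51 (95% interval -0.91 to -0.11, adjusted p = 1). The second was PMAIP1, with a log2 difference of S5P from Y1P of -0.66 (95% interval -1.08 to -0.25, adjusted p = 0.666). For BBC3 the difference was -0.11 between S2P and Y1P (95% interval -0.47 to 0.25) and -0.24 between S5P and Y1P (95% interval -0.60 to 0.12).

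The 10 genes were also compared between antibodies within each condition. At a log2FC beyond 1 in either direction, none of the 10 genes was called without irradiation between S2P and Y1P (1.09% of all genes were), S5P and Y1P (0%) or S5P and S2P (0%). None was called with irradiation either, where 3.88%, 0.264% and 0.0847% of all genes were. All log2FCs of the 10 genes between antibodies lay from -0.52 to 0.50, and DESeq2 also called 0 of those it gave an adjusted p, 6 to 10 of the genes in each comparison. At an unadjusted p under 0.05 there were 1, 1 and 3 genes without and 5, 1 and 1 with irradiation. At an adjusted p under 0.05 alone BBC3 was lower with S2P than with Y1P in nonirradiated cells (log2FC -0.41, SE 0.121, adjusted p = 0.0378), as 3.02% of all genes were. This call was lost in 8 of 19 alternatives, among them those without Y1P replicate 1 (log2FC -0.22), S2P replicate 1 (-0.21), S5P replicate 1 (-0.39) or S5P replicate 2 (-0.41) and DESeq2 (adjusted p = 0.059). In irradiated cells BBC3 (-0.52, adjusted p = 0.00191), TP53I3 (-0.33, adjusted p = 0.0338) and PHLDA3 (-0.36, adjusted p = 0.0479) were lower with S2P, 3 of 10 genes beside 12.6% of all genes. The BBC3 call was lost in 1 of 19 alternatives, without S2P replicate 1 (log2FC -0.40). That of TP53I3 was lost in 9, including DESeq2, with the log2FC at -0.14 without Y1P replicate 2 and from -0.32 to -0.29 without S2P replicate 1, S2P replicate 2 or S5P replicate 1. That of PHLDA3 was lost in 14, including DESeq2, the length trend removed (-0.11) and each replicate left out (-0.49 to -0.19).

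Other genes of the pathway were taken from lists written from general knowledge. Of 25 other p53 targets tested, 7 rose and 4 fell in the mean of the antibodies, beside 11.9% and 12.9% of all genes. Their median log2FC was 0.06, beside 0.0218 over all genes. The 3 with the smallest p were CDKN1A, the inhibitor of cyclin-dependent kinases (log2FC 0.95, SE 0.064), RPS27L (0.57, SE 0.0629) and the stress protein gene GADD45A (0.63, SE 0.0741). BBC3 at 0.89, PHLDA3 at 0.65 and AEN at 0.59 stood in the range of these 3 genes. Of 12 other BCL-2 family genes, 3 rose and 1 fell, with a median of 0.11, beside 11.9% of all genes higher and 12.9% lower. They were BMF (0.50, adjusted p = 0.00185), another BH3-only gene, the pore-forming BAK1 (0.36, adjusted p = 0.0416), BCL2L11 and, lower, the antiapoptotic BCL2 (-0.20, adjusted p = 0.0272).

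Of 7 death receptor pathway genes tested, 1 rose, a share near the 11.9% of all genes, and this was FADD, the adaptor that FAS and TNFRSF10B recruit (mean log2FC 0.43, SE 0.0972, adjusted p = 0.00818). Of 12 caspase and apoptosome genes 0 rose in edgeR's test and in DESeq2, and 1 was higher at an unadjusted p under 0.05. In that list 2 fell, a share near the 12.9% of all genes: XIAP, an inhibitor of caspases (-0.38, adjusted p = 0.00355), and APAF1, the scaffold of the apoptosome, which is also on the list of p53 targets (-0.26, adjusted p = 0.0183). Of 10 regulators of p53, 1 rose, a share near the 11.9% of all genes, and 3 fell, beside 12.9% of all genes. KAT5 rose (0.20, adjusted p = 0.0237). CHEK2 (-0.33, adjusted p = 0.00289), PPP1R13B (-0.27, adjusted p = 0.0102) and USP7 fell.

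The genes with the pattern most like that of each gene called with a single antibody were sought over the 12 libraries, after the mean of each antibody was taken off, among protein-coding genes with a mean of at least 50 counts. For BBC3 the 5 most alike were IRF2BP1, SLC35C1, H1-10, TRIM11 and BTG2, with Pearson correlations of 0.985 to 0.968. For PHLDA3 they were S100A16, RMI2, CYB561, CDKN1A and SPAAR (0.967 to 0.955), and for AEN CBX6, ZG16B, FZD7, FAM83G and RPP25L (0.988 to 0.972). For TP53I3 they were RASGEF1A, CCDC71, PLB1, ATP23 and CHPF (0.982 to 0.965), and for PMAIP1 ZC3H6, FAM209A, POLR2M, FADD and CFL2 (0.959 to 0.926). No gene of the 10 was among the 5 most alike of another. The libraries share cell line, irradiation and replicate numbers, so these correlations are descriptions.

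The surroundings of the genes bear on how their counts are read. FAS is overlapped over 28.2% of its length by STAMBPL1 on the same strand and over 49.5% by ACTA2 on the other. Reads that fall in several gene bodies of the same strand were left out of the counts. For FAS this concerns the overlap with STAMBPL1, since reads were counted by strand. The start of FAS in RefSeq lies 36985 bases after that in GENCODE, so its gene body here begins far before the RefSeq start. For TP53I3 and ZMAT3 the RefSeq start lies 1027 and 406 bases after that in GENCODE. Both exceed the 200 bp left out, so the gene bodies of TP53I3 and ZMAT3 also hold their RefSeq starts. What signal near those starts adds to their values was not tested. STAMBPL1 had a mean log2FC of -0.20 (adjusted p = 0.026) and ACTA2 of 0.13 (adjusted p = 0.666). On the other strand, the end of RHOBTB2 and a lncRNA, ENSG00000246130, overlap TNFRSF10B, and both rose in the mean (log2FC 0.39, adjusted p = 0.00625, and 0.45, adjusted p = 0.0452) while TNFRSF10B did not pass. A lncRNA, ENSG00000224818, overlaps 15.4% of PHLDA3 on the same strand and had 0 counts. Reads shared by their gene bodies were left out, so the 0 counts do not show whether the lncRNA was transcribed there. The level of PHLDA3 may be understated for the same reason.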

How the data were processed

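The authors trimmed adapters, aligned reads to hg38 with STAR, and deposited raw counts of reads per gene body for 24 samples, 1 for each replicate number and batch of a group, without reads on the opposite strand, in several gene bodies or at several places. cutadapt 1.8.3 is the version in the submitters' processing notes. What a batch is the labels do not say. Batches of 1 replicate number differed by little more than sampling noise (chi-square per degree of freedom 1.06 to 1.1, against 10 to 70.2 between replicate numbers) and were summed to 12 libraries. Gene names and coordinates are from GENCODE release 44, and 120 IDs with 0.0116% of the counts are not in it.

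The 12 libraries were fitted together by edgeR 4.0.16 in R 4.3.3 (filterByExpr, TMM, quasi-likelihood test, Benjamini-Hochberg over all 21246 genes kept), with terms for the 6 groups and, inside every antibody, for the replicate number as a block. Comparisons between antibodies used 1 replicate block shared by them. Calls needed an adjusted p below 0.05, with a log2FC beyond 0.1 for irradiation and beyond 1 between antibodies. The fit had 3 residual and 11 prior degrees of freedom. The scripts were tested on simulated data with known changes. The replicate numbers were treated as paired. Deviations from group means correlated weakly, at 0.156 to 0.367 over 15 pairs of groups. For the 3 pairs within an antibody, which the block uses, the correlations were 0.156 to 0.261. Whether a number marks a shared culture is not stated. DESeq2 1.42.0 was run as an alternative, with other scalings, filters, blocks, batches and libraries left out.

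The genes, lists and tests were chosen with earlier results of these data known. Named are all 10 genes, from each list the 3 called genes with the smallest p in the mean of the antibodies, for each gene called with a single antibody the 5 most alike, and overlapping or adjacent genes. MIR3190 and MIR3191, within BBC3, were not analysed here. BCL2L11 and USP7 were named after their values were seen.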

Additional observations from a re-analysis of the deposited data

Results flagged for a closer look

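PMAIP1 is listed because its pairs moved in opposite directions: both pairs were higher after irradiation with Y1P (log2 ratios of 0.52 and 0.68) and with S2P (0.18 and 0.41), and both were lower with S5P (-0.07 and -0.06). The difference of the effect with S5P from that with Y1P was -0.66 (SE 0.194, unadjusted p = 0.00419, adjusted p = 0.666 in edgeR's interaction test), and from that with S2P -0.35 (SE 0.194, adjusted p = 0.999). Neither passed the test. The values with S5P lay within 0.1 of 0. Groups of 2 libraries are too small for a test of single outlying samples.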

How the results depend on the processing

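Each irradiation effect with a single antibody was recomputed under 20 alternatives. There were 19 for the mean and the interactions, which separate fits do not give. Comparisons between antibodies also had 19, since the shared replicate block is their main setting. Percentages are shares of all genes called in either direction. With Y1P the 5 calls (8.66%) fell to 1 once the length trend was removed (3.02%) and to 0 with no replicate block (0.00941%). They were 6 with a replicate block shared by the antibodies (15.9%) and 7 with batches as replicates (40.9%). DESeq2 called 4 with Y1P, without PMAIP1 (2.27% of the 54377 genes of the table). With S2P the 1 call (0.0988%) became 2 with no filter on low counts (1.61%), with separate fits (1.88%) and with the shared replicate block (1.16%), 8 with batches as replicates (26.8%) and 0 with no replicate block (0%). With S5P the 1 call (0.0518%) became 4 with no filter (0.664%) or separate fits (5.4%), 2 with the shared replicate block (0.297%) and 6 with batches as replicates (18.2%), whereas 0 passed with no replicate block (0%), in batch 1 alone (0.049%), with a stricter filter (0.0604%), by library totals (0.0377%) or among protein-coding genes alone (0.0616%). The mean of the antibodies fell from 7 calls (24.8%) to 4 with the length trend removed (12.3%). In DESeq2 it fell to 5, without PMAIP1 and BAX (6.11% of the 54377 genes of the table). It rose to 8 with other scaling factors (22.8% and 26.8%) or the stricter filter (31.4%). With the shared replicate block (30.7%), library totals (20.8%) or batches as replicates (49.4%) it rose to 9. ZMAT3 was called lower with relative log expression factors, the shared block and batches as replicates. With batches as replicates, 1 gene, PMAIP1, had a different effect with S5P and Y1P. Leaving out 1 replicate left 1 library in each group of its antibody, and calls then changed, as given above. The log2FC of BBC3 was then 1.17 or 0.87 with Y1P, 0.81 or 0.98 with S2P and 0.65 or 0.86 with S5P. The cause of these changes was not tested, beyond that batches of 1 replicate number are not separate samples here and that fewer libraries were left.

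Of the 914 values of single genes under an alternative, 776 kept their side of the threshold, 73 lost a call, 45 gained one and 20 turned sign, none of them called. For BAX the Y1P log2FC was -0.074 with the length trend removed, and -0.12 to 0.58 with 1 replicate left out, and the S2P one -0.12 to 0.51. For TNFRSF10B with Y1P it was 0.055 with upper quartile factors, 0.19 with library totals, 0.000 with no filter, 0.047 with the stricter filter, 0.054 with protein-coding genes alone, 0.025 with batches as replicates, 0.027 in batch 2, 0.022 with the length trend removed and -0.013 to 0.009 with 1 replicate left out. With S2P it was -0.010 in DESeq2 and -0.060 to 0.097 with 1 replicate left out. ZMAT3 with Y1P had 0.099 with library totals and -0.32 to 0.15 with 1 replicate left out. With S5P, batch 2 alone gave 0.024 for PMAIP1 and -0.19 for FAS, and leaving out 1 replicate -0.018 to 0.057 for FAS and -0.021 to 0.46 for TP53INP1.

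Library totals alone moved the Y1P median log2FC over all genes from 0.0188 to 0.213, and the calls from 931 higher and 909 lower to 1188 and 49. With upper quartile factors they were 1076 and 385. FAS, PMAIP1, PHLDA3 and TP53INP1 have the fewest counts and so the widest counting error, and 2 libraries a group limit every test.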
